A study of Mus musculus with 18 samples.

Results

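The genes described here encode the coat and the lipolysis machinery of lipid droplets, and were taken as 10 named genes matched by symbol to the Ensembl mouse gene IDs of the tables. They are the perilipins Plin2, Plin3, Plin4 and Plin5, the lipase inhibitors Hilpda and G0s2, the lipases Pnpla2, Lipe and Mgll, and the lipase coactivator Abhd5. All 10 were found among the 35551 genes of the tables. Of these, 8 passed a minimum mean of 10 normalized counts in each of the 3 exposure windows and were tested, and Plin5 and Mgll did not. They were measured by poly(A) RNA sequencing of AML12 cells, an immortal line grown from hepatocytes of a mouse carrying a transforming growth factor α transgene, so each group is a sample of 1 line and not of liver. The circadian clocks of all cells were synchronized, and they were exposed either to the solvent DMSO or to pemafibrate (Pema in the labels), a drug that activates PPARα, a nuclear receptor for fatty acids. Exposure ran for 24 h from T0 to T24, for 6 h from T14 to T20 as a day-like window, or for 6 h from T24 to T30 as a night-like window. With 3 libraries in each of the 6 groups there were 18 in all, numbered as replicates 1 to 3, and each pemafibrate library was compared with the DMSO library of the same number and window. The sources used here do not give the dose, the solvent share or the method of synchronization.

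A lipid droplet stores triglyceride and sterol ester behind a single layer of phospholipid, and perilipins on that surface limit access of lipases to the core. Breakdown proceeds in steps: Pnpla2 (adipose triglyceride lipase, ATGL) cleaves the first fatty acid from triglyceride, Lipe (hormone-sensitive lipase) cleaves diglyceride, and Mgll (monoglyceride lipase) frees the last fatty acid. Abhd5 (CGI-58) activates Pnpla2, and G0s2 and Hilpda bind and inhibit it. In hepatocytes, fatty acids released in this way are burned, re-esterified or secreted with lipoproteins, and some act as ligands of PPARα, for which several droplet proteins are known targets.

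The promoter windows of Plin2 and Lipe are shown first because these were the genes of the set that were higher with pemafibrate in every pair of libraries. The windows run from 250 bases before to 50 bases after the annotated start, from RefSeq on GRCm38.p6, and are written 5′ to 3′ on the strand of the gene. Capitals mark matches to a PPAR response element (a direct repeat, AGGTCANAGGTCA, with up to 2 mismatches outside the N, on either strand) and to the E-box CACGTG bound by clock factors, which reads the same on both strands. The motifs do not overlap in these windows.
Plin2, chr4:86670010-86670309, minus strand: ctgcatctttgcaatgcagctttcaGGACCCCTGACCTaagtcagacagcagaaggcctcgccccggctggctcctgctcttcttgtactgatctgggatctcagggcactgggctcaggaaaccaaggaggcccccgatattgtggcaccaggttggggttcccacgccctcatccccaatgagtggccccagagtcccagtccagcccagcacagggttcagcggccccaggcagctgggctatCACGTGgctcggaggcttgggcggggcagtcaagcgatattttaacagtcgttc
Lipe, upstream start, chr7:25395938-25396237, minus strand: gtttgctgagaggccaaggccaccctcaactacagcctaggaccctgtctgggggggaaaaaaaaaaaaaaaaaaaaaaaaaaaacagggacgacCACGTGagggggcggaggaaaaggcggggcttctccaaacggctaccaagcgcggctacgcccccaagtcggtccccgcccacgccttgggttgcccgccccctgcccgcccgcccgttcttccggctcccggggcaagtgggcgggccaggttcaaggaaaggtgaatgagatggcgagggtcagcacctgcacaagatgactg

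Counted in bases from the start, the repeat lay at −225 and the E-box at −4 in the Plin2 window, and the E-box at −155 in the Lipe window. RefSeq gave 14 windows for the 10 genes, with a pair of starts each for Plin5, Hilpda, Lipe and Mgll. The repeat with up to 2 mismatches was in 1 of these 14 windows, that of Plin2, and in 3.86% of 32851 promoter windows of the same length, whereas the exact repeat was in none of the 14 and in 0.0396% of all windows. The E-box was in 3 of the 14 windows, including 1 of Mgll, and in 7.15% of all. The downstream start of Lipe, not shown, had neither motif in its window. These matches describe the letters of a short window and say nothing of binding.

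Values are normalized counts, which the authors scaled separately within the table of each window, so levels are compared between windows only as a description. Their totals ran from 31461977 to 33884634 per library, and read depth before scaling is unknown. Hepatocyte markers were present, with 8 of 9 above the minimum and a summed level of 175363 to 219884 per library. Apoa1 was the exception, averaging 6.02 to 11.4 over the libraries of each replicate number. The highest hepatocyte markers were the keratins Krt8 and Krt18, averaging 54146 to 73453 and 44402 to 55409 by replicate number, and Trf (42909 to 49965). Alb averaged 3263 to 6657. Biliary keratin and Sox9 transcripts were also present (3 of 4 markers, summed level 15694 to 20639), in ranges that overlapped between DMSO and pemafibrate (15875 to 20473 and 15694 to 20639). The biliary marker below the minimum was Epcam, averaging 2.06 to 3.90 by replicate number. Adipocyte markers were at or near 0, with 0 of 7 above the minimum, Lep and Cfd listed at 0 in every library, and a summed level of 1.99 to 11.9. Of macrophage, stellate cell or fibroblast, and endothelial markers, 3 of 4, 3 of 5 and 1 of 3 were above the minimum. Their summed levels were 206 to 361, 35.3 to 138 and 8.91 to 32.4. Below the minimum were Adgre1 (listed at 0 in every library), Col3a1, Pdgfrb, Kdr and Cdh5. As a check of exposure, Acot1, Angptl4, Cpt1a and Pdk4, known PPARα targets, rose when 1 effect was fitted to all 3 windows together (the common fit; log2 effects of 0.73, 0.57, 0.31 and 1.17), and Ppara itself did not pass (0.11, adjusted p = 0.953). Its effects in the 24 h, day-like and night-like windows were −0.50, 0.50 and 0.33, and none passed (adjusted p = 0.946, 0.575 and 0.686). Within single windows, Acot1 was called in all 3 and Angptl4 over T0 to T24 and T24 to T30. Cpt1a was called over T0 to T24 only, and Pdk4 in no window. Of all tested genes, 0.181% rose in the common fit. These check genes were chosen with earlier results of these data known. Nothing in the labels says that replicates were separate cultures, so the p-values rest on differences among libraries that may be technical repeats.

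Relative to exon length, Plin2 and Pnpla2 had the highest levels of the 10 genes. In the 9 DMSO libraries the mean level per kb of merged exons (GENCODE M21) was 3067 ± 318 (SD, n = 9) for Plin2, 1642 ± 181 for Pnpla2 and 965 ± 186 for Plin3, a perilipin that moves between cytosol and droplet. Hilpda at 487 ± 40.8 and G0s2 at 451 ± 97.6 were next and did not separate, since the range of Hilpda (439 to 556) lay within that of G0s2 (315 to 570). Abhd5 followed at 206 ± 23.9, then Lipe at 95.1 ± 16.4 and Plin4, best known from adipocytes and muscle, at 53.5 ± 17.8. Lipe and Plin4 came close without overlapping, as the lowest Lipe value was 81.3 and the highest Plin4 value 80.1. The annotation behind the authors' counting is unknown here, and its lengths may differ from these.

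**Figure D1:**
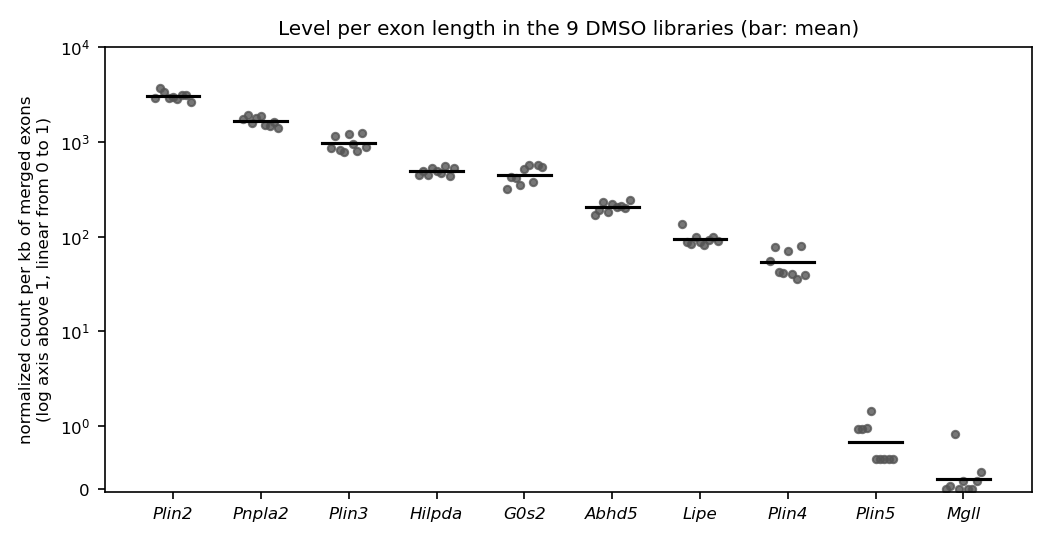
Normalized count per kb of merged exons in the 9 DMSO libraries for the 10 genes, ordered by mean (bars), with a log axis above 1 and a linear axis from 0 to 1. Plin2 leads at 3067, Hilpda and G0s2 overlap, and Plin5 and Mgll lie near 0, far below the other 8.

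Plin5, the perilipin of oxidative tissues, and Mgll were barely detected. Plin5 ranged from 0.988 to 5.96 normalized counts over the 18 libraries, with means of 2.0, 1.7 and 1.0 with DMSO and 3.3, 3.3 and 3.7 with pemafibrate in the 24 h, day-like and night-like windows. At values this low no fold change is given and none was tested. Mgll, the last enzyme of the cascade, was listed at 0 in several libraries and reached 4.44 at most. The canonical adipocyte coat gene Plin1 (0.991 to 9.95) and Cidec (0 to 4.46), which promotes droplet fusion, were below the minimum as well.

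Plin2, the main droplet coat protein of hepatocytes and the most abundant gene of the set, was higher with pemafibrate in every pair. Over T0 to T24 its normalized counts were 10134, 13036 and 11882 with DMSO and 13678, 16714 and 15340 with pemafibrate in replicates 1, 2 and 3. All 3 pemafibrate libraries lay above all 3 DMSO libraries there. Over T14 to T20 they were 10148, 10540 and 10022 with DMSO and 13684, 12863 and 12627 with pemafibrate, again without overlap. Over T24 to T30 they were 10905, 10970 and 9299 with DMSO and 15300, 13645 and 11303 with pemafibrate, and here replicate 3 was low under both treatments but the groups still did not overlap.

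The log2 effect on Plin2 was 0.39 ± 0.03 over T0 to T24 (SE, paired limma fit, adjusted p = 0.0127), 0.35 ± 0.03 over T14 to T20 (adjusted p = 0.0434) and 0.36 ± 0.05 over T24 to T30 (adjusted p = 0.161). It rose in the first 2 windows, and in the third the estimate was as large but did not pass. As folds these are 1.31, 1.28 and 1.28. In the common fit, in which each of the 9 pairs was a block, Plin2 rose 1.29-fold (95% interval 1.25 to 1.33, adjusted p = 1.8e-06), and the 9 pair differences ran from 0.28 to 0.49. This fit treats pairs of the same number in different windows as independent. With the windows averaged within each replicate number, which leaves 3 units a treatment, Plin2 was still called (adjusted p = 0.0035). The call within a window depended on single pairs. Over T0 to T24 adjusted p was 0.0554 without replicate 1 and 0.0645 without replicate 3, the same omissions gave 0.0690 and 0.0796 for the day-like window, and over T24 to T30, of the 3 replicates left out in turn, Plin2 passed only without replicate 1 (0.0245). Without the pairing, adjusted p was 1.00 in each window and 0.0595 in the common fit. Without the filter on low genes it was 0.273 and 0.748 in the first 2 windows, and without a variance trend 0.502 and 0.701, whereas a fit sharing 1 spread over all 18 libraries called Plin2 in all 3 windows (0.0023, 0.0061 and 0.0053). RNA per cell and the number of cells making it cannot be told apart in bulk RNA.

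**Figure D2:**
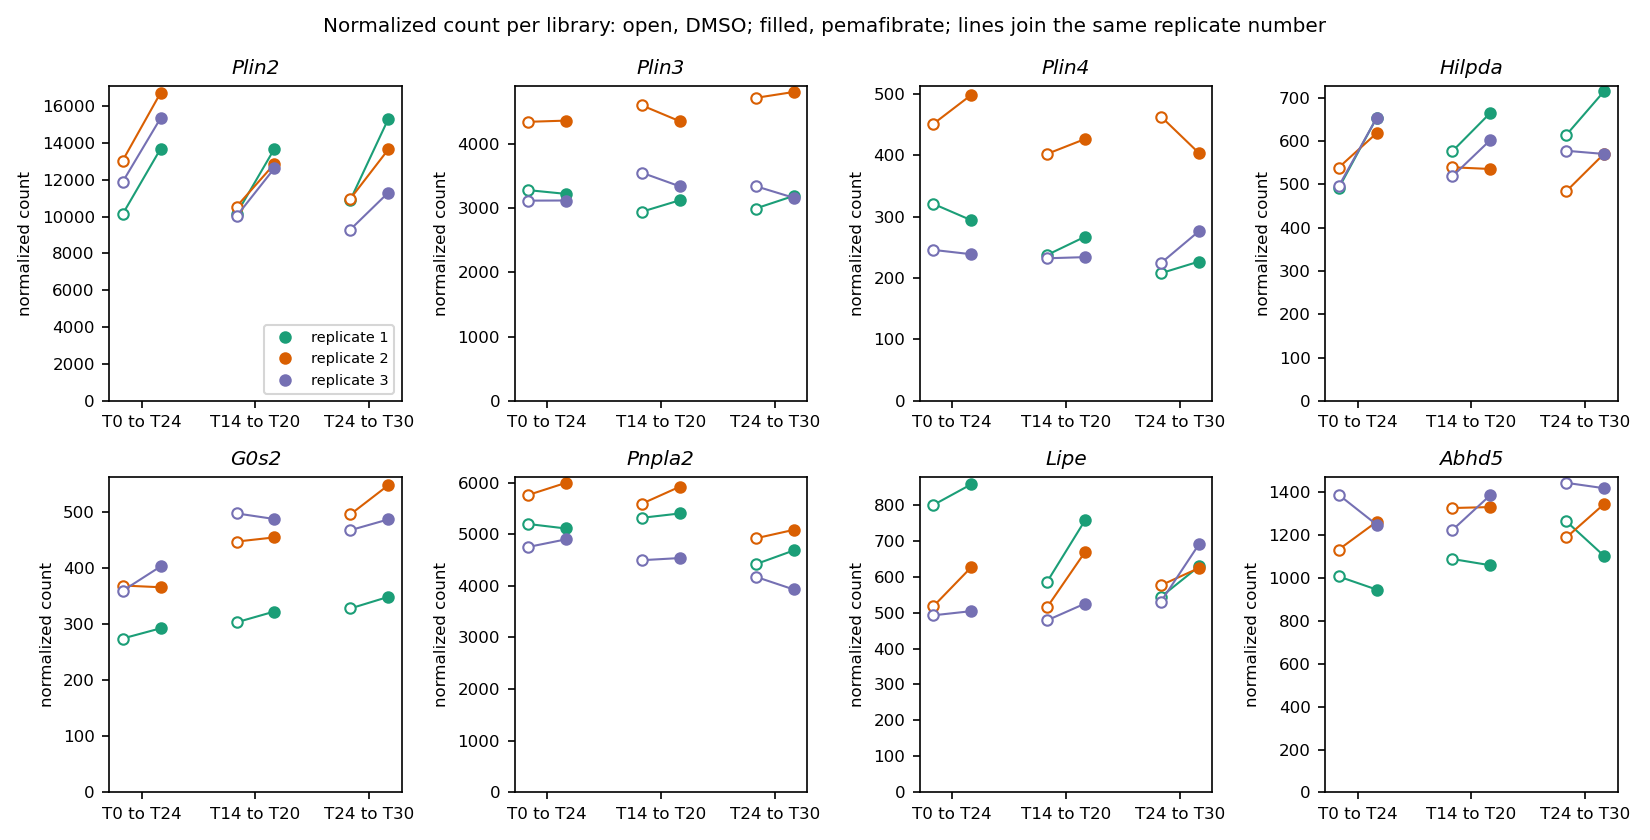
Normalized count (linear axes from 0) in each of the 18 libraries for the 8 tested genes, with open points for DMSO, filled points for pemafibrate and lines joining libraries of the same replicate number and window. All 9 Plin2 and all 9 Lipe lines slope upward, while Plin3, Plin4, G0s2 and Pnpla2 lie in layers by replicate number.

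Of the 8 tested genes, Plin2 alone was called in any window. The share of all tested genes that rose was 0.0525% over T0 to T24 (7 of 13325), 0.0303% over T14 to T20 (4 of 13210) and 0.0378% over T24 to T30 (5 of 13231), against 1, 1 and 0 of the 8. None of the 8 fell in limma, where 0%, 0.00757% and 0% of all genes fell. None of the 8 was lower at an unadjusted p under 0.05 either, beside 2.00%, 4.50% and 3.67% of all tested genes. Higher at an unadjusted p under 0.05 were Plin2 and Hilpda over T0 to T24, and Plin2 and Lipe in each of the 6 h windows, so 2 of 8 each time beside 3.17%, 3.64% and 3.84% of all tested genes. The median effect of the 8 was 0.05, 0.07 and 0.09, beside −0.0027, −0.0023 and −0.00082 for all genes.

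Lipe, the diglyceride lipase that protein kinase A activates, was the other gene higher in 9 of 9 pairs. Its counts over T0 to T24 were 799, 517 and 492 with DMSO and 856, 626 and 504 with pemafibrate, so the groups overlapped and replicate 1 was high under both. Over T14 to T20 they were 586, 515 and 478 against 757, 669 and 525, where the pemafibrate library of replicate 3 lay within the DMSO range. Over T24 to T30 they were 544, 576 and 531 against 628, 624 and 690, with no overlap. The log2 effects were 0.14 ± 0.07, 0.29 ± 0.07 and 0.23 ± 0.07 in the order of the windows, none of which passed over all genes (adjusted p = 0.952, 0.508 and 0.625). The common effect of 0.22 ± 0.04, a 1.17-fold difference, also missed the threshold (adjusted p = 0.0919, the 31st smallest p of 13258).

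In the common fit 1 of 8 genes rose, Plin2, where 0.181% of 13258 genes rose and 0.00754% fell. Higher in all 9 pairs were 2 of the 8, Plin2 and Lipe, beside 0.483% of all genes (64 of 13258), and none was lower in all 9, beside 0.302%. Within single windows the genes higher in all 3 pairs were Plin2, Hilpda and Lipe over T0 to T24, Plin2, Plin4, Pnpla2 and Lipe over T14 to T20, and Plin2, G0s2 and Lipe over T24 to T30. These are 3, 4 and 3 of 8, beside 12.7%, 14.6% and 14.9% of all tested genes. No gene of the 8 was lower in every pair of a window, beside 12.9%, 16.0% and 15.6%.

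**Figure D3:**
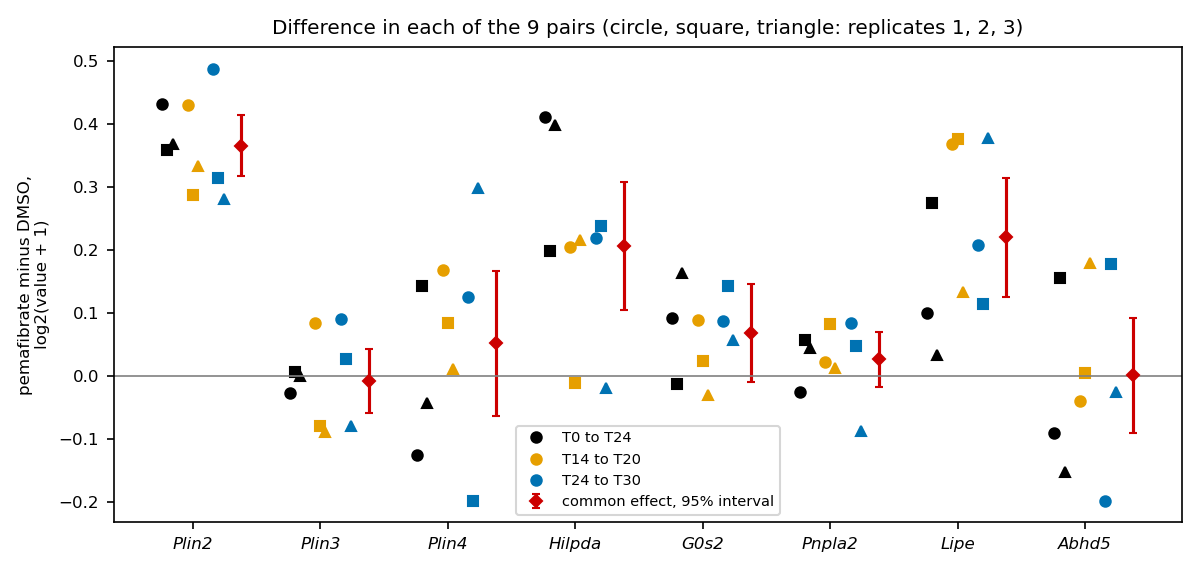
Pemafibrate minus DMSO on the log2(value + 1) scale for each of the 9 pairs (black T0 to T24, orange T14 to T20, blue T24 to T30; shapes give the replicate number), with the common effect and its 95% interval in red. The Plin2 points run from 0.28 to 0.49 and the Lipe points from 0.03 to 0.38, all above 0, while the points of Plin3 and Abhd5 fall on both sides of it.

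Hilpda, the small hypoxia-inducible inhibitor of Pnpla2, had its largest estimate at 24 h. Its counts over T0 to T24 were 490, 538 and 495 with DMSO and 653, 618 and 653 with pemafibrate, and the groups did not overlap. Over T14 to T20 they were 576, 539 and 518 against 665, 535 and 602, and over T24 to T30 they were 614, 484 and 577 against 715, 571 and 570, with overlap in both windows. The log2 effects were 0.34 ± 0.07, 0.14 ± 0.07 and 0.15 ± 0.08 (adjusted p = 0.533, 0.679 and 0.701), and the common effect was 0.21 ± 0.05 with 7 of 9 pairs higher (adjusted p = 0.210). None of these passed. G0s2, the other inhibitor, had mean counts of 334 ± 52.0, 415 ± 101 and 430 ± 89.7 (SD, n = 3) with DMSO and 353 ± 56.0, 421 ± 87.1 and 460 ± 102 with pemafibrate. Its common effect was 0.07 (95% interval −0.01 to 0.15), also with 7 of 9 pairs higher, and did not pass (adjusted p = 0.825).

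Pnpla2, the lipase that both inhibitors bind, had a narrow interval that spanned 0. Its mean counts were 5235 ± 504, 5134 ± 569 and 4504 ± 379 with DMSO and 5334 ± 581, 5286 ± 698 and 4566 ± 586 with pemafibrate. The common effect of 0.03 had a 95% interval of −0.02 to 0.07, which as a fold runs from 0.988 to 1.05. Abhd5, its coactivator, had means of 1177 ± 195, 1214 ± 119 and 1300 ± 131 with DMSO and 1153 ± 179, 1260 ± 175 and 1289 ± 166 with pemafibrate, a common effect of 0.0016 (−0.09 to 0.09) and 4 of 9 pairs higher. The first lipase step thus had neither its enzyme nor its coactivator called. In the common fit, the upper interval ends were about 1.05-fold for Pnpla2 and 1.07-fold for Abhd5. That fit treats pairs of the same number in different windows as independent. Within single windows the upper ends were 1.08 to 1.09 for Pnpla2 and 1.10 to 1.13 for Abhd5. The lower ends there were 0.940 to 0.976 and 0.873 to 0.944.

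The other tested perilipins did not pass either. Plin3 averaged 3578 ± 666, 3697 ± 837 and 3682 ± 910 with DMSO and 3566 ± 690, 3603 ± 656 and 3718 ± 942 with pemafibrate, with a common effect of −0.0070 (−0.06 to 0.04) and 5 of 9 pairs higher. Plin4 averaged 339 ± 104, 290 ± 96.5 and 298 ± 143 with DMSO and 343 ± 137, 309 ± 103 and 302 ± 91.0 with pemafibrate, with a common effect of 0.05 (−0.06 to 0.17). The interval of Plin2 (0.32 to 0.42) lay above those of Plin3 and Plin4, although the difference between the genes was not tested. Among all 13258 genes, 134 had a common effect at least as high as that of Plin2, 321 at least that of Lipe and 364 at least that of Hilpda.

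**Figure D4:**
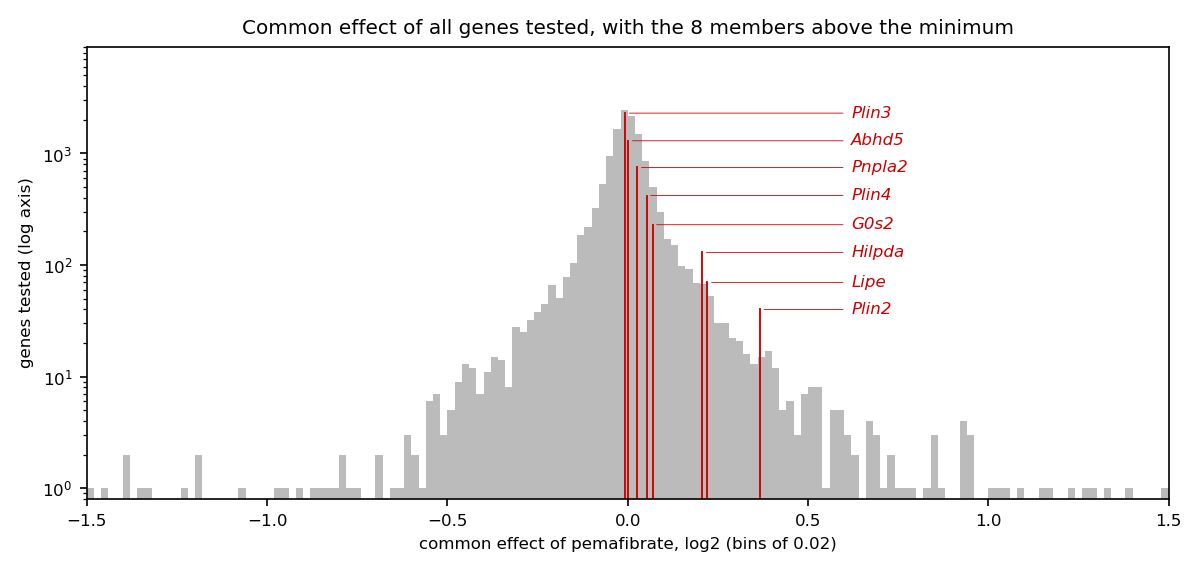
Common effect of pemafibrate (log2, bins of 0.02) for the genes tested, on a log axis of gene number, with red lines at the 8 tested droplet genes. Plin2 at 0.37, Lipe at 0.22 and Hilpda at 0.21 stand in the upper shoulder and the other 5 near the centre. The axis leaves out 2 genes below −1.5 and 7 above 1.5.

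Whether the response depended on the window was tested on differences of the paired effects. No gene of the 8 differed between windows in limma, at an adjusted or an unadjusted p under 0.05, and over all 13258 genes 0 were called (0%) in each of the 3 differences, beside 559 higher and 666 lower (T14 to T20 minus T24 to T30), 373 and 281 (T0 to T24 minus T14 to T20) and 540 and 517 (T0 to T24 minus T24 to T30) at an unadjusted p under 0.05. The Plin2 effect of the day-like window less that of the night-like window was −0.01 (95% interval −0.14 to 0.12), and the 24 h effect exceeded those of the day-like and night-like windows by 0.04 (−0.09 to 0.16) and 0.03 (−0.10 to 0.15). For Hilpda the 24 h effect was larger by 0.20 (−0.03 to 0.43) and 0.19 (−0.04 to 0.42), and the 6 h windows differed by −0.01 (−0.24 to 0.22). For Lipe the corresponding values were −0.16 (−0.39 to 0.07), −0.10 (−0.33 to 0.13) and 0.06 (−0.17 to 0.29). For Hilpda and Lipe, these intervals leave room for differences larger than their common effects, 0.21 and 0.22. Both 6 h windows have the same exposure length, but they differ in clock time and in the time passed since synchronization, which cannot be told apart. Against the 24 h window, exposure length changes as well.

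For some of the 8 genes, libraries of 1 replicate number separated from those of another in every window. In single comparisons of replicate numbers, 29.9% to 33.9% of all tested genes did so. Replicate 2 carried high Plin3, at 4341 to 4805 in its 6 libraries against 2943 to 3279 in replicate 1 and 3115 to 3550 in replicate 3. Plin4 was also highest in replicate 2, at 402 to 498 in replicate 2, 208 to 321 in replicate 1 and 224 to 276 in replicate 3. G0s2 was low in replicate 1 (274 to 348) beside 365 to 547 and 359 to 497 in the others. In every window, both libraries of replicate 2 lay above both of replicate 1 for Plin3, Plin4, G0s2 and Pnpla2. Replicate 3 did not overlap with replicate 1 for G0s2 and Abhd5 (above) and Pnpla2 (below), nor with replicate 2 for Plin3, Plin4 and Pnpla2 (all below). These are 4, 3 and 3 of 8 genes, beside 29.9%, 33.0% and 33.9% of all tested genes, so the layering is shared by much of the transcriptome. Plin2 did not separate by this rule, with means of 12308, 12961 and 11745 over both treatments in replicates 1, 2 and 3. The rule takes DMSO and pemafibrate libraries together, so it is harder to meet for a gene that differs with treatment. Under each treatment, replicate 3 had the lowest Plin2 in both 6 h windows. Over T0 to T24, replicate 1 was lowest and replicate 2 highest under each treatment. Alb, which encodes the main secreted protein of hepatocytes, also differed, at 6657, 3784 and 3263, and its part in the replicate differences was not tested.

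The pattern of Plin2 over the 18 libraries, after removal of each window's mean, was closest to those of Iba57 (Pearson r = 0.84), an assembly factor for mitochondrial iron-sulfur proteins, Eci2 (0.83), an isomerase of β-oxidation, and Acot1 (0.81), a cytosolic acyl-CoA thioesterase. The libraries share their replicate numbers and treatments in pairs, so these values only describe likeness. Eci2 and Acot1 rose in the common fit (0.21 and 0.73), and Iba57 did not pass (0.17, adjusted p = 0.125).

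Around the core set, 5 further lists of droplet genes had no member called in any window, in the common fit or in a difference between windows. Of all tested genes, 0.0525%, 0.0303% and 0.0378% rose in the 3 windows and 0.181% in the common fit. At most 0.00757% fell in any of these, and 0% were called in the differences. With so few genes called, the absence of calls says little about these lists. Of the other droplet proteins 13 of 17 were tested, with 8 positive common effects and a median of 0.0043, and 0 of 13 at an unadjusted p under 0.05, beside 6.45% of all genes. Their smallest p belonged to Pcyt1a (0.05 ± 0.03), which makes phosphatidylcholine for growing droplets, Hsd17b13 (−0.06 ± 0.05), a droplet-bound hepatocyte dehydrogenase, and Aup1 (−0.03 ± 0.03). Of triglyceride and sterol ester synthesis genes 12 of 13 were tested, with 6 positive effects, a median of 0.00021 and 2 of 12 at an unadjusted p under 0.05 (Lpin2 and Dgat2). Lpin2, a phosphatidate phosphatase, was at 0.08 ± 0.03 and Dgat2, which makes triglyceride, at 0.06 ± 0.02, each with 8 of 9 pairs higher (adjusted p = 0.667 and 0.694), and Lpin1 at 0.05 ± 0.03. Over T0 to T24 alone, 2 of 12 had an unadjusted p under 0.05, beside 5.17% of all genes. They were Gpat3 (0.52 ± 0.15), an acyltransferase of the first step of glycerolipid synthesis, and the phosphatidate phosphatase Lpin3 (−0.57 ± 0.15), named after their values were seen (adjusted p = 0.836 and 0.756).

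Other lipid hydrolases had 7 of 11 positive effects, a median of 0.011 and 1 of 11 (Ddhd2) at an unadjusted p under 0.05. Of all genes, 6.45% had such a p in the common fit, which is also the share for the lists below. Ddhd2, a phospholipase and triglyceride hydrolase, was higher in 9 of 9 pairs at 0.12 ± 0.03 (adjusted p = 0.332), followed by Nceh1 (0.06 ± 0.03), a cholesterol ester hydrolase, and Lipa (0.03 ± 0.02), the lysosomal acid lipase. Higher in all 9 pairs were 0.483% of all genes. The carboxylesterases Ces1d, Ces1f and Ces1g, which hydrolyse triglyceride in liver, stayed below the minimum with values of at most 4.96. Protein kinase A genes had 6 of 11 positive effects, a median of 0.0032 and 0 of 11 at an unadjusted p under 0.05, with the smallest p for Gnas (−0.02 ± 0.02), Pde4d (0.07 ± 0.07) and Prkaca (0.02 ± 0.02). Droplet autophagy genes had 6 of 11 positive effects, a median of 0.0021 and 1 of 11 (Tfe3) at an unadjusted p under 0.05, with Tfe3, a transcription factor for lysosomal genes, at 0.09 ± 0.03 (adjusted p = 0.606), Becn1 at −0.08 ± 0.04 and Map1lc3b at −0.03 ± 0.02. At an unadjusted p under 0.05, 2 of these 11 were higher over T14 to T20 (Lamp2 and Hspa8) and 3 of 11 were lower over T24 to T30 (Lamp2, Hspa8 and Becn1), where 8.14% and 7.51% of all genes had such a p in either direction. In the difference between these windows it was 3 of 11 (Lamp1, Lamp2 and Hspa8), beside 9.24%. These genes were named after their values were seen. Lamp2, a lysosomal membrane protein, was at 0.08 ± 0.03 over T14 to T20 and −0.10 ± 0.03 over T24 to T30, a difference of 0.18 ± 0.04 that did not pass (adjusted p = 0.249). Over all 13258 genes 47.6% of common effects were positive, with a median of −0.0025.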

How the data were processed

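Libraries were made from oligo(dT)-selected RNA of AML12 cells, strand-marked with dUTP and amplified as DNA nanoballs, per the labels' protocols. The authors deposited 1 table per window with normalized counts, a signal scaled between its 6 libraries, per the file headers and names. The column names end as salmon output does. Build, annotation and tool versions: not given in the sources used here. Median-of-ratios factors computed from the tables were all 1. Low values were not all whole reads (56.6% to 74.5% within 0.05 of a whole number up to 8 reads), so no count test was run.

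Symbols came from a gene name table (35181 of 35551 IDs matched). All fits used log2(value + 1), a scale that understates changes of low genes, and kept genes averaging 10 or more. The test was limma's (version 3.58.1, R 4.3.3; variance trend, two-sided, Benjamini-Hochberg over all genes tested, threshold 0.05), with the replicate number as a block. Deviations from group means correlated at 0.31 to 0.64 across genes in the 9 same-numbered pairs and at −0.44 to −0.11 in the 18 others. Such deviations cancel within a group, so negative values follow from the positive ones and add no support of their own. The pairing rests on the titles' numbers and the same-numbered correlations. The fits were also run on simulated data with noise independent between libraries, and the outcome is not given here. That setting cannot show the effect of treatment differences shared by pairs of the same number. Named genes are all 10 of the set, up to 3 of smallest p per further list, and the 3 nearest to each gene called in the common fit. The genes and lists were chosen with earlier results of these data known. Alternatives were no block, another pseudocount, other minimums, other scalings, other variance settings, other pooling and each replicate left out.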

Additional observations from a re-analysis of the deposited data

How the results depend on the processing

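Of 648 values of the 8 tested genes under an alternative, 599 kept direction and side of the threshold, 11 lost a call (all Plin2), 2 gained one (Plin2 over T24 to T30) and 36 changed sign, every one of them with a replicate left out and none of them called. The median of all genes moved by under 0.1 on the log2 scale in each alternative. Many of the 648 values could not have changed direction. Median-of-ratios rescaling had factors of 1 and so repeated the main fit. Changes of block, minimum, variance setting or pooling leave the effect itself as it was. Direction could change only with the pseudocount, upper-quartile rescaling or a replicate left out. Depth is unknown, and each window has 3 pairs.

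Without the replicate block, 0 genes were called in each window and 2 in the common fit, with 0 of the 8 droplet genes in any. Without the filter on low values, and without a variance trend, 0 genes and 0 droplet genes were called in each window. A shared fit of all 18 libraries called 14, 9 and 8 genes in the order of the windows, with 1 droplet gene over T24 to T30, robust variances called 8 over T14 to T20, and averaging the windows called 12 in the common fit. With a replicate left out, the genes called ranged from 4 to 12 over T0 to T24, from 1 to 7 over T24 to T30, from 12 to 17 in the common fit and from 0 to 1 in each of the 3 differences, and the droplet genes called from 0 to 1 in each window. The cause of these shifts was not tested.

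Log2 effects that changed sign ranged, with a replicate left out, as follows. Over T0 to T24, Plin3 ranged from −0.0126 to 0.0036, Plin4 from −0.0834 to 0.0508 and Abhd5 from −0.1214 to 0.0331. Over T14 to T20, Plin3 ranged from −0.0843 to 0.0026, G0s2 from −0.0028 to 0.0563 and Abhd5 from −0.0172 to 0.0926. Over T24 to T30, Plin3 ranged from −0.026 to 0.0595, Plin4 from −0.0364 to 0.2121, Pnpla2 from −0.0201 to 0.0658 and Abhd5 from −0.1117 to 0.0765. In the common fit, Plin3 ranged from −0.0356 to 0.0174 and Abhd5 from −0.0542 to 0.057. In the difference T14 to T20 minus T24 to T30, Plin2 ranged from −0.0424 to 0.0122, Plin4 from −0.1217 to 0.1632, Hilpda from −0.1315 to 0.1101, Pnpla2 from −0.0131 to 0.0681, Lipe from −0.0413 to 0.2114 and Abhd5 from −0.0074 to 0.1822. In T0 to T24 minus T14 to T20, Plin3 ranged from −0.0125 to 0.0879, Plin4 from −0.1738 to 0.0029, G0s2 from −0.0162 to 0.0986, Pnpla2 from −0.0359 to 0.0032 and Abhd5 from −0.1919 to 0.0502. In T0 to T24 minus T24 to T30, Plin2 ranged from −0.006 to 0.0654, Plin3 from −0.0695 to 0.0296, Plin4 from −0.2955 to 0.0457, G0s2 from −0.0759 to 0.0553, Pnpla2 from −0.049 to 0.0713, Lipe from −0.2258 to 0.0265 and Abhd5 from −0.0747 to 0.0428. Upper-quartile rescaling was chosen after seeing the data and changed no call of the 8.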
